A study of Mus musculus with 6 samples.

Results

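Hdc, Mcpt8, Prss34, Cpa3, Fcer1a, Ms4a2 and Gata2, 7 genes usually named as markers of mast cells and basophils, were followed in spleen cells of leukaemic mice. They were taken by name from the 14860 genes with an array entry of a single gene symbol, and each of the 7 had 1 entry. The genes were selected on their measured differences between the groups, in particular that of Hdc, so those differences are given as a description, without a test. The treated group was 3 mice given ABT-737, a BH3 mimetic drug that occupies BCL-2 and its close relatives among the anti-apoptotic proteins, at 75 mg/kg, 3 doses a week for 33 days, and the control group was 3 mice, untreated per the series description. All 6 mice were NRASD12/BCL-2 double transgenics in FVB/N, a model of acute myeloid leukaemia, and the controls carried both transgenes too. The sources used here do not give the promoters that drive the transgenes or the age of the mice, nor do they mention a vehicle for controls. Spleen cells were enriched with magnetic beads for Sca-1, and 1 Affymetrix exon array was run per mouse.

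Mast cells and basophils are granule-bearing cells of allergic and antiparasite responses. Both carry the high-affinity receptor for IgE, and when antigen cross-links it they release histamine, proteases and lipid mediators from their granules or by new synthesis. Hdc encodes histidine decarboxylase, the enzyme that makes histamine, and in mice it is also known from immature myeloid cells and neutrophils. Mcpt8 and Prss34 encode serine proteases of basophils, Cpa3 the carboxypeptidase of mast cell granules, Fcer1a and Ms4a2 the alpha and beta chains of the IgE receptor, and Gata2 a transcription factor of mast cell, basophil and stem cell development.

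Values are log2 array signals, so a difference of 1 is a doubling of signal, and signals of different genes are not comparable as levels. Array medians ran from 7.07 to 7.14 in treated mice and from 6.86 to 7.13 in controls. On the first principal component over all genes, which held 44.1% of the variance, treated mouse 1 scored -7.42, nearer to the controls (-21.0 to -15.0) than to treated mice 2 and 3 (32.2 and 28.1). Control mouse 3 had a low signal of the Y-linked gene Kdm5d, 4.77 against 8.05 to 9.06 in the other mice. The same held for the Y-linked gene Eif2s3y, at 4.23 against 9.87 to 10.27. The part of sex in the differences was not tested. The cells were labelled as primitive. The B cell gene Cd79a had signals of 12.69 to 13.49 over the 6 mice, the T cell gene Cd3e 11.80 to 12.56 and the progenitor gene Cd34 8.89 to 10.25, which do not rank their transcripts.

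The 7 genes did not move as a set. Hdc was the one with a higher mean in treated mice, and the other 6 had lower means, as 8213 of all 14860 genes had. The median difference was -0.17 over the 7 genes and -0.02 over all genes. For Hdc every treated mouse lay above every control, while 6.14% of all genes had groups that did not overlap in that direction. No gene of the 7 had all treated mice below all controls, which 7.19% of all genes did. As Hdc was chosen for its difference, nothing is read from these counts.

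**Figure D1:**
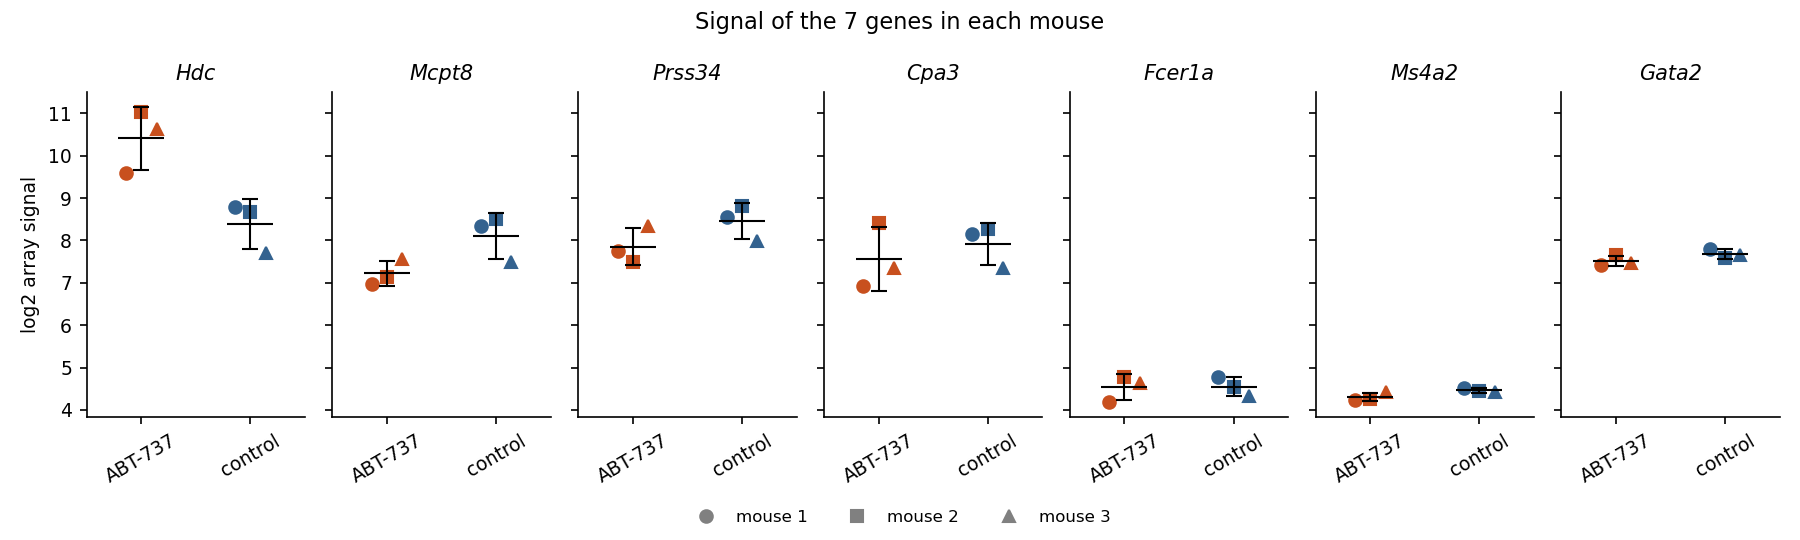
Log2 array signal (y axis) of the 7 genes in ABT-737 mice (left of each panel) and control mice (right); each point is 1 mouse, the long bar is the mean and the whiskers are the SD (n = 3 each). Hdc sits at 9.58 to 11.02 in treated mice and 7.70 to 8.79 in controls, and in the other 6 panels the groups overlap or touch.

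Because Gata2 encodes a factor that binds GATA sites, the 250 bases upstream of the annotated start of each of the 7 genes were searched for AGATAA or AGATAG and for TGATAA or TGATAG, on both strands. Sequences were those of RefSeq, build GRCm38.p6, in which all 7 genes matched, with 8 windows as Gata2 has 2 starts. The motif was in 5 of these 8 windows, each of a different gene, against 26.5% of all 32851 windows of that length, and was not found in those of Mcpt8 and Gata2. A match describes letters only and was not tested as a binding site. The upstream windows of Hdc (chr2:126618679-126618928, minus strand), Mcpt8 (chr14:56085198-56085447, minus strand) and Prss34 (chr17:25298144-25298393, plus strand) are printed whole, because these are the genes with the largest differences. Sequences run 5′ to 3′ along the gene's strand, these ending at the base before the start, with the GATA motif in capitals. The RefSeq spans of Hdc and Mcpt8 also reach 5347 and 302 bases further upstream of these starts.
Hdc: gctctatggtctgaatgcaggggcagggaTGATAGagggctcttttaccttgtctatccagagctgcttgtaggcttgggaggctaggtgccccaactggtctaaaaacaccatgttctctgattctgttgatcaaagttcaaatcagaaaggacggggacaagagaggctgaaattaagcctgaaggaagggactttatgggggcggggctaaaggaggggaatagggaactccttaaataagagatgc
Mcpt8: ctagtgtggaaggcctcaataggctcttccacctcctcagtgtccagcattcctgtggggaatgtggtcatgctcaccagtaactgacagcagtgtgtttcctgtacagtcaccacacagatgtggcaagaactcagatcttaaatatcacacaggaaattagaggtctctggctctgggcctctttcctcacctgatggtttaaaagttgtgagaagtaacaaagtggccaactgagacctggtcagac
Prss34: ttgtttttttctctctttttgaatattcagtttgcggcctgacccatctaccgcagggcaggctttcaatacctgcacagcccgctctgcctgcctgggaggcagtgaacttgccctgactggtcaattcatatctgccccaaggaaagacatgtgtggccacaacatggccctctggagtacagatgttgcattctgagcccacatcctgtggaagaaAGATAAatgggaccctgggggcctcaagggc
In Hdc the motif began 221 bases upstream of the start and in Prss34 31 bases upstream. Cpa3 (chr3:20242195-20242254, minus strand) held it 46 bases upstream, and Fcer1a (chr1:173227289-173227348, minus strand) 92 bases upstream on the opposite strand. Ms4a2 (chr19:11623720-11623779, minus strand) held it 37 bases upstream on the opposite strand and 11 bases upstream on the same strand. The 60 bases around these sites are shown for comparison of their setting.
Cpa3: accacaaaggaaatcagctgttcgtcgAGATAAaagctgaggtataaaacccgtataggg
Fcer1a: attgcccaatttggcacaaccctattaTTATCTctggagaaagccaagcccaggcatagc
Ms4a2: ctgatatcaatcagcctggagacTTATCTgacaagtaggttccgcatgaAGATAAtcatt
Ms4a2 held a further motif 224 bases upstream on the opposite strand, 3 in all, a number reached by 1.35% of all windows.

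Hdc, the histamine-making enzyme, had log2 signals of 9.58, 11.02 and 10.63 in treated mice 1, 2 and 3, against 8.79, 8.67 and 7.70 in control mice 1, 2 and 3. Treated mouse 1 was the lowest of its group and still lay above all controls, and control mouse 3 was the lowest of all. Means were 10.41 ± 0.75 in treated mice and 8.39 ± 0.60 in controls (SD, n = 3 each), a difference of 2.02 (SE 0.42), or 4.07-fold. Leaving out treated mouse 1 gave 2.44, and leaving out control mouse 3 gave 1.68. In these bulk samples, more cells of a type and more RNA per cell cannot be told apart.

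Neutrophil markers moved with Hdc over the mice. Of 15 listed, 13 were measured, all with higher means in treated mice, beside 6647 of all 14860 genes. At an unadjusted p under 0.05 by limma 12 of the 13 were higher, against 5.75% of all genes in that direction. An adjusted p under 0.05 was found for 0 of them, with a smallest value of 0.155. The marker lists were chosen with earlier results of these data known, so these shares are descriptions. Averaged over the list, treated mice had log2 signals of 11.89, 12.86 and 12.91, and controls 11.16, 11.03 and 10.24. Over the 6 mice Hdc and this mean correlated at r = 0.993 (rho 0.943), and at r = 0.971 after each group's mean was removed. Lcn2, an iron-binding protein of neutrophil granules and one of the brightest of the list, stood at 13.70 to 14.04 in treated mice and 13.10 to 13.66 in controls. The means of the 8 measured eosinophil and 6 measured megakaryocyte markers ran with Hdc as well (r = 0.84 and 0.826). With group means removed these were 0.844 and 0.6. The early granulocyte, erythroid and NK cell lists then had r of 0.749, 0.721 and 0.649, and 0.09, 0.697 and -0.256 over all mice. Of the 6 megakaryocyte markers F2rl2 had the largest difference, 1.64 (SE 0.37). The part of RNA of any of these cell types in the Hdc difference was not tested. Hdc also ran against the 8 measured B cell markers (r = -0.925), whose mean was 10.80 to 11.87 in treated mice and 11.71 to 12.13 in controls. All of these points share the same 6 arrays, and these correlations are descriptions.

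Among the other 14853 genes, those most like Hdc over the 6 mice were Slfn4 (r = 0.997), Upp1 (0.995), Raet1e (0.993), Clec4e (0.992) and Cd14 (0.991). Slfn4 belongs to the Schlafen family, Upp1 encodes uridine phosphorylase, Clec4e the C-type lectin receptor Mincle, and Cd14 the lipopolysaccharide co-receptor of myeloid cells. Slfn4 ranked the mice exactly as Hdc did, at 10.38, 11.98 and 11.77 in treated mice and 9.60, 9.21 and 8.31 in controls. In all, 107 genes reached r of 0.95 or more with Hdc, and 154 did so with Gata2.

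The basophil protease Mcpt8 had signals of 6.97, 7.14 and 7.56 in treated mice, against 8.34, 8.50 and 7.49 in controls. Control mouse 3 lay within the treated mice, while the other controls lay above all of them. Means were 7.22 ± 0.30 in treated mice and 8.11 ± 0.54 in controls (SD, n = 3 each), a difference of -0.89 (SE 0.28). That difference was -0.69 without control mouse 2 and -1.20 without control mouse 3. Of the 7 genes it was the one farthest below 0.

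Prss34, the second basophil protease, had signals of 7.74, 7.50 and 8.33 in treated mice and 8.56, 8.81 and 7.98 in controls. Treated mouse 3 lay above control mouse 3, so the groups overlapped. The difference of means was -0.59 (SE 0.28), with 7.86 ± 0.43 in treated mice and 8.45 ± 0.43 in controls (SD, n = 3 each). Across the 6 mice Prss34 and Mcpt8 were the most alike of the 21 pairs among the 7 genes by r over all mice (r = 0.935, rho 0.943). With group means removed their r was 0.901, below that of Hdc with Fcer1a (0.964) and with Cpa3 (0.909), pairs whose r over all mice was 0.428 and 0.127. Of their windows printed above, the one of Prss34 held the GATA motif and the one of Mcpt8 did not.

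Markers of early granulocytes, the cells that make azurophil granules, varied in a like way. The 7 markers had mean signals of 10.10, 10.55 and 11.35 in treated mice and 11.28, 11.21 and 10.36 in controls, so treated mouse 3 was the highest of all. Correlations with this mean were 0.775 for Mcpt8 and 0.808 for Prss34, and 0.914 and 0.852 with group means removed. Likeness to this list was not particular to the 2 proteases. Ms4a2 and Fcer1a had r of 0.768 and 0.7, and 0.895 and 0.721 with group means removed. For Hdc these were 0.09 and 0.749, for Cpa3 0.476 and 0.422, and for Gata2 0.305 and 0.159. Elane, the neutrophil elastase, stood at 12.22, 12.32 and 13.23 in treated mice and 13.23, 13.16 and 12.33 in controls. Of the 7 markers, 6 had lower means in treated mice, beside 8213 of all 14860 genes. By limma 0 of the 7 had an unadjusted p under 0.05, against 10.2% of all genes. The part of these cells in the protease differences was not tested.

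Genes most like Mcpt8 were Scgb3a1 (r = 0.984), Tfap2a (0.983), Scd3 (0.980), Traip (0.976) and Gdap1 (0.973). None of the 5 is on the lists of granule or receptor genes used here, and their differences were small, from -0.40 for Scgb3a1 to -0.05 for Gdap1. Tfap2a, Scd3 and Gdap1 were dim, with mean signals at the 11.5, 14.4 and 16.8 percentiles of all genes. In all, 19 genes reached r of 0.95 or more with Mcpt8. For the 7 genes such counts ran from 5 for Cpa3 to 154 for Gata2. How many genes would reach it by chance over 6 mice was not tested.

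**Figure D2:**
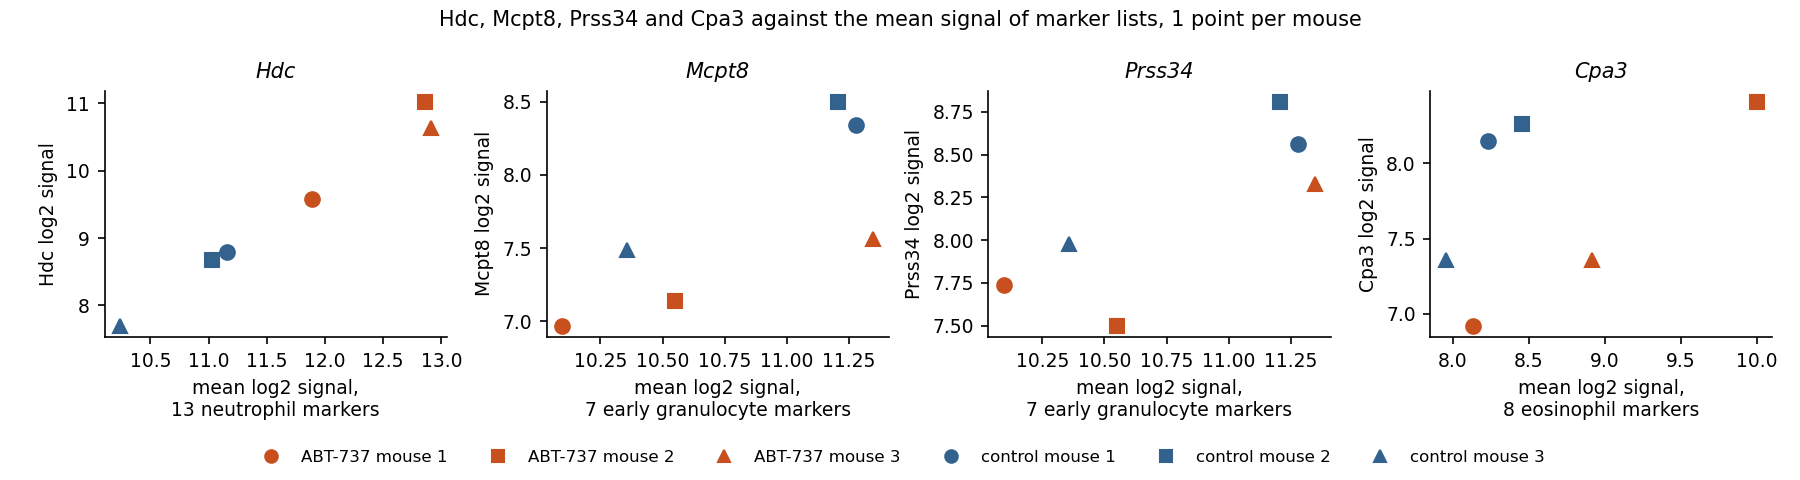
Log2 signal of Hdc, Mcpt8, Prss34 and Cpa3 (y axes) against the mean log2 signal of a marker list (x axes), 1 point per mouse, treated mice in orange and controls in blue. Hdc follows the 13 neutrophil markers through both groups (r = 0.993), while at a like level of early granulocyte markers treated mouse 3 has a lower Mcpt8 signal (7.56) than control mice 1 and 2 (8.34 and 8.50).

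Cpa3, the granule carboxypeptidase, spread widely within both groups. Signals were 6.92, 8.41 and 7.36 in treated mice and 8.15, 8.26 and 7.36 in controls. Treated mice held both the lowest and the highest value. The difference of -0.36 (SE 0.40) was smaller than its error, and it depended on single mice, at -0.04 with treated mouse 1 left out, -0.78 with treated mouse 2, -0.19 with control mouse 2 and -0.64 with control mouse 3. With group means removed, Cpa3 ran with the mean of the 8 measured eosinophil markers (r = 0.936; 0.531 over all mice). With the 7 measured NK cell markers its r was 0.881 with group means removed and 0.867 over all mice, the highest of the 12 marker lists over all mice. Treated mice had 8.13, 10.00 and 8.92 for the eosinophil list, and controls 8.23, 8.46 and 7.96. Treated mouse 2 was the highest for Cpa3 and for the eosinophil granule protein genes Prg2, at 11.72, and Epx, at 10.92. The NK cell list had 7.18, 7.92 and 7.11 in treated mice and 7.91, 7.80 and 7.65 in controls. The part of eosinophil or NK cell RNA in the Cpa3 values was not tested.

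The IgE receptor chains had signals low in the range of this array. Fcer1a, the alpha chain that binds IgE, stood at 4.19, 4.78 and 4.64 in treated mice and 4.79, 4.55 and 4.32 in controls, and its mean signal was at the 12.2 percentile of all genes. The groups overlapped fully, with a difference of -0.02 (SE 0.19) that turned to 0.16 without treated mouse 1 and 0.10 without control mouse 1. Ms4a2, the beta chain, was at 4.23, 4.26 and 4.42 in treated mice and 4.53, 4.45 and 4.42 in controls, at the 9.9 percentile. Its groups touched at 4.42, and its difference was -0.16 (SE 0.11), or -0.25 when arrays were centred on their medians. No background signal was used here, so it is not known whether these entries lay above it.

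Other defining markers varied in their percentile. Cd200r3, a receptor of basophils and mast cells, stood at 3.93 to 4.07 in treated mice and 3.93 to 4.0 in controls, the 4.8 percentile. The mast cell tryptase Tpsb2 stood at 5.53 to 5.82 in treated mice and 5.51 to 5.79 in controls, and the chymase Cma1 at 5.25 to 5.64 in treated mice and 5.25 to 5.63 in controls, both within the lowest 28.0% of genes. Kit, also a defining marker of mast cells, was at the 61.0 percentile, and Il3ra, the interleukin 3 receptor chain of basophils, at the 77.1 percentile. Mcpt8, Cpa3 and Prss34 were at 53.6, 54.6 and 60.4. A percentile depends on the array entry as well as on the transcript, so these values do not settle whether mast cells or basophils were present.

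Gata2, the transcription factor, had signals of 7.42, 7.65 and 7.47 in treated mice and 7.80, 7.59 and 7.65 in controls, so treated mouse 2 equalled control mouse 3 and lay above control mouse 2. The difference was -0.17 (SE 0.12), and -0.11 without control mouse 1. Over the 6 mice Gata2 had r = 0.773 with the mean of the 11 stem and progenitor markers. With the mean of the 7 NK cell markers r was 0.872. With group means removed these were 0.715 and 0.8. For the 6 measured megakaryocyte markers r was 0.836 with group means removed and -0.033 over all mice. Among the 7 genes, r of Gata2 over all mice was 0.691 with Cpa3, 0.599 with Fcer1a and 0.592 with Ms4a2. It was 0.537 with Mcpt8, 0.247 with Prss34 and -0.359 with Hdc. With group means removed, r was 0.672 with Cpa3, 0.77 with Fcer1a and 0.168 with Ms4a2. It was then 0.043 with Mcpt8, -0.324 with Prss34 and 0.629 with Hdc, so the last 2 changed sign. That stem and progenitor mean was 7.27 to 7.53 in treated mice and 7.24 to 7.73 in controls.

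**Figure D3:**
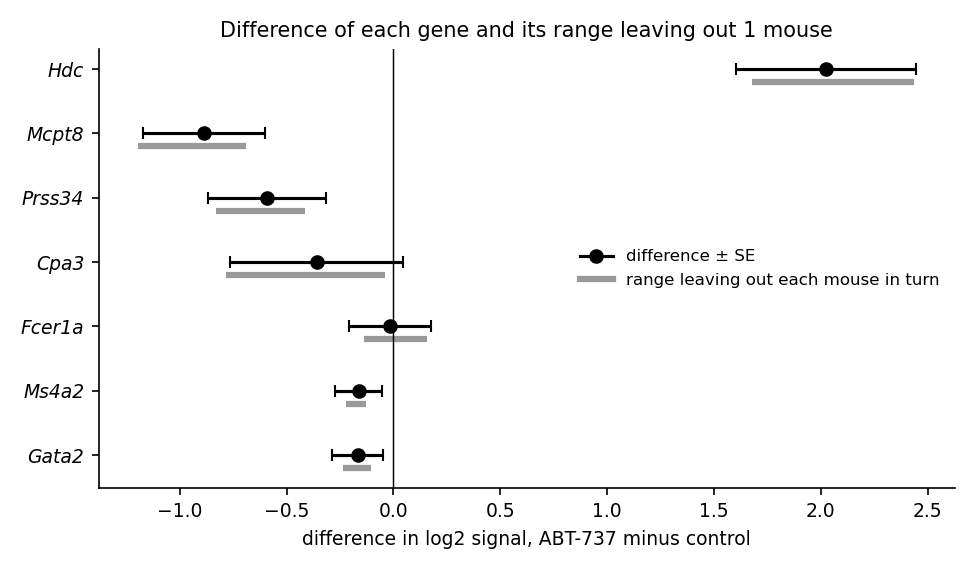
Difference in log2 signal, ABT-737 minus control, of each of the 7 genes (point, with its SE from limma) and the range of that difference when each mouse is left out in turn (grey bar). Hdc stays between 1.68 and 2.44 and Mcpt8 between -1.20 and -0.69, while the range of Fcer1a spans 0.

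The other genes of the pathway were tested in a fit over all genes. Of 97 genes on 7 lists of mast cell and basophil biology, 78 were measured, and 0 had an adjusted p under 0.05 by limma, with a smallest value of 0.241. Of all 14860 genes, 0 (0.0%) passed. At an unadjusted p under 0.05 there were 14 higher (17.9%) and 3 lower (3.85%) among the 78, against 5.75% and 4.45% of all genes, or 10.2% in both directions. Of all genes at that p, 56.3% were higher, but 34.4% after quantile normalization and 32.0% after centring arrays on their medians. The lists were written with results of these data known and hold many genes shared with neutrophils and macrophages, so the shares are descriptions. Their median difference was 0.06. Without treated mouse 1, 11 of the 78 (14.1%) had an adjusted p under 0.05, all higher, against 3.43% of all genes, or 3.08% counting higher ones alone. The 11 were Alox5, Alox5ap, Ptgs2, Hrh2, Hnmt, Fcer1g, Ccl4, Il18rap, Csf2rb, Gata1 and Spi1. Of 38 genes of these lists named here, 24 had a difference that moved by more than 1.5 times when 1 mouse was left out. Where a difference is near 0 this ratio passes 1.5 with small moves. The 24 include Slc18a2 (-0.02), Cebpa (-0.01), Cd200r3 (0.03), Kit (0.04), Tpsb2 (-0.04) and Cma1 (0.06). They also include larger differences, such as Hnmt (1.15) and Csf1 (0.76). Without control mouse 1, or without control mouse 2, the 17 genes at an unadjusted p under 0.05 became 11. The count over all genes fell as well in these fits, from 1516 to 1090 and 1292.

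Among genes of histamine handling, Hrh2, the H2 receptor of histamine, had signals of 9.33, 10.30 and 9.91 in treated mice and 8.43, 7.99 and 8.47 in controls, with no overlap. Its difference was 1.55 (SE 0.26, adjusted p = 0.241 by limma), or 2.93-fold. Hnmt, which methylates histamine, stood at 5.75, 7.45 and 6.71 in treated mice and 5.71, 5.37 and 5.38 in controls, a difference of 1.15 (SE 0.39, adjusted p = 0.404). Treated mouse 1 exceeded the highest control by little. Hrh4, the H4 receptor, differed by 0.28 (SE 0.11). Slc18a2, the transporter that loads histamine into granules, differed by -0.02 (SE 0.11), and the diamine oxidase gene Aoc1 by -0.28 (SE 0.13). In this list 3 of 8 measured genes (37.5%) had an unadjusted p under 0.05, all higher, against 5.75% of all genes. After centring on array medians 2 were higher and 1 lower, beside 618 and 1314 of all 14860 genes. Leaving out treated mouse 1 gave 1.59 for Hnmt, and leaving out treated mouse 2 gave 0.74.

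Enzymes of lipid mediators held the 2 largest differences of the 78 genes, those of Alox5 and Ptgs2. Alox5, which starts leukotriene synthesis, had signals of 10.40, 11.82 and 12.12 in treated mice and 9.68, 9.44 and 8.46 in controls, a difference of 2.25 (SE 0.49, adjusted p = 0.281 by limma). Its partner Alox5ap differed by 1.03 (SE 0.30) and the prostaglandin synthase Ptgs2 by 1.82 (SE 0.32), and the groups overlapped in none of the 3. Hpgds, the prostaglandin D synthase of mast cells, stood at 8.91, 8.0 and 8.43 in treated mice and 8.53, 8.06 and 7.97 in controls, a difference of 0.26 (SE 0.25). As deposited, all 7 measured genes of this list had higher means, beside 6647 of all 14860 genes. After quantile normalization or centring 5 did, as Ltc4s and Lta4h, at 0.04 and 0.03 as deposited, turned lower. An unadjusted p under 0.05 was found for 3 of the 7 in each case, all higher. As deposited that was 42.9%, against 5.75% of all genes in that direction. Of all genes, 854 were higher at that p as deposited, 737 after quantile normalization and 618 after centring.

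In the list of IgE receptor signalling, 3 of 14 genes (21.4%) had an unadjusted p under 0.05, all higher, against 5.75% of all genes. After centring on array medians it was 1, while the higher genes among all genes at that p went from 854 to 618. Fcer1g, the gamma chain that the IgE receptor shares with Fc receptors of neutrophils and macrophages, had signals of 12.89, 13.39 and 13.27 in treated mice and 12.50, 12.60 and 12.73 in controls. Its difference was 0.57 (SE 0.16, adjusted p = 0.337 by limma), beside -0.02 and -0.16 for the alpha and beta chains. Orai1, the calcium channel of store-operated entry, and the adaptor Lcp2 differed by 0.35 (SE 0.13) and 0.34 (SE 0.14). Gab2, another adaptor, differed by 0.64 (SE 0.32) with overlapping groups.

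Of 14 measured basophil surface and cytokine genes, 5 were higher (35.7%) and 1 lower (7.14%) at an unadjusted p under 0.05. For all genes these shares were 5.75% and 4.45%. Il18r1, the receptor for interleukin 18, stood at 8.92, 8.94 and 8.95 in treated mice and 8.48, 8.16 and 8.32 in controls, a difference of 0.62 (SE 0.12, adjusted p = 0.245 by limma). Its co-receptor Il18rap differed by 1.06 (SE 0.35), although treated mouse 1, at 8.68, lay below control mouse 1, at 8.79. The chemokines Ccl4 and Ccl3, also made by macrophages and neutrophils, differed by 1.05 (SE 0.22) and 0.66 (SE 0.18). The remaining 2 of the 6, named after their values were seen, were Csf1, the macrophage growth factor, at 0.76 (SE 0.27), and Il6 at -0.64 (SE 0.27).

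Of granule and surface genes of mast cells, 0 of 14 measured had an unadjusted p under 0.05 by limma, against 10.2% of all genes. The median difference of the 14 was -0.02. Kit, the stem cell factor receptor that mast cells depend on, stood at 8.08, 8.46 and 8.12 in treated mice and 8.25, 7.83 and 8.46 in controls, a difference of 0.04 (SE 0.19) that was -0.04 after quantile normalization and -0.05 after centring. Ndst2, which sulphates granule heparin, differed by 0.40 (SE 0.19), and Mcpt1 and Mrgprb1 by 0.27 (SE 0.21) and -0.16 (SE 0.13). Ctsg, a protease of both mast cells and early granulocytes that is also on the early granulocyte list, stood at 10.50, 10.60 and 12.07 in treated mice and 12.20, 12.16 and 11.00 in controls. Treated mouse 3 and control mouse 3 went against the other mice of their groups. The difference of Ctsg was -0.73 (SE 0.49), and from -1.24 to -0.45 leaving out each mouse.

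Growth factor receptors gave 0 of 6 measured genes at an unadjusted p under 0.05 by limma, against 10.2% of all genes. Csf2rb, the shared chain of the receptors for interleukin 3, interleukin 5 and granulocyte-macrophage colony-stimulating factor, stood at 10.61, 11.53 and 11.73 in treated mice and 10.71, 10.69 and 10.67 in controls. Treated mouse 1 lay below the controls and the other treated mice above them, and the difference was 0.60 (SE 0.27). Without treated mouse 1 it was 0.94, with an adjusted p of 0.0125 by limma, and without treated mouse 3 it was 0.38. Il3ra, the chain specific to interleukin 3, the main basophil growth factor, differed by 0.16 (SE 0.14), Il4ra by 0.28 (SE 0.16) and Il5ra by 0.28 (SE 0.29).

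Transcription factors showed 2 lower and 0 higher genes of 17 at an unadjusted p under 0.05. These were 11.8% of the list, against 4.45% of all genes lower and 10.2% in both directions. Irf8, a factor of monocyte, dendritic and B cells, stood at 10.99, 11.22 and 10.17 in treated mice and 11.45, 11.38 and 11.76 in controls, a difference of -0.74 (SE 0.27, adjusted p = 0.434 by limma). Ikzf2 differed by -0.45 (SE 0.16). Without treated mouse 1 neither passed the adjusted threshold (adjusted p = 0.231 for Irf8 and 0.329 for Ikzf2), whereas Gata1 and Spi1 passed it as higher. Gata1, the relative of Gata2 in mast cells, red cells and megakaryocytes, stood at 6.27, 7.34 and 7.18 in treated mice and 6.48, 6.40 and 6.34 in controls, a difference of 0.52 (SE 0.27), beside -0.17 for Gata2. Without treated mouse 1 that of Gata1 was 0.85 (adjusted p = 0.0179 by limma), and without treated mouse 2 it was 0.32. Mitf, a factor of mast cell maturation, differed by 0.45 (SE 0.28), Spi1 by 0.49 (SE 0.23), Cebpb by 0.42 (SE 0.21) and Cebpa, a factor of basophil development, by -0.01 (SE 0.19). Spi1 was 0.76 without treated mouse 1 (adjusted p = 0.0254 by limma) and 0.32 without treated mouse 2, and Mitf was 0.69 and 0.14 in these fits. Erythroid markers had means of 7.26, 9.02 and 9.66 in treated mice and 8.15, 7.82 and 7.83 in controls, with treated mouse 1 again below the controls, and their part in the Gata1 values was not tested.

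**Figure D4:**
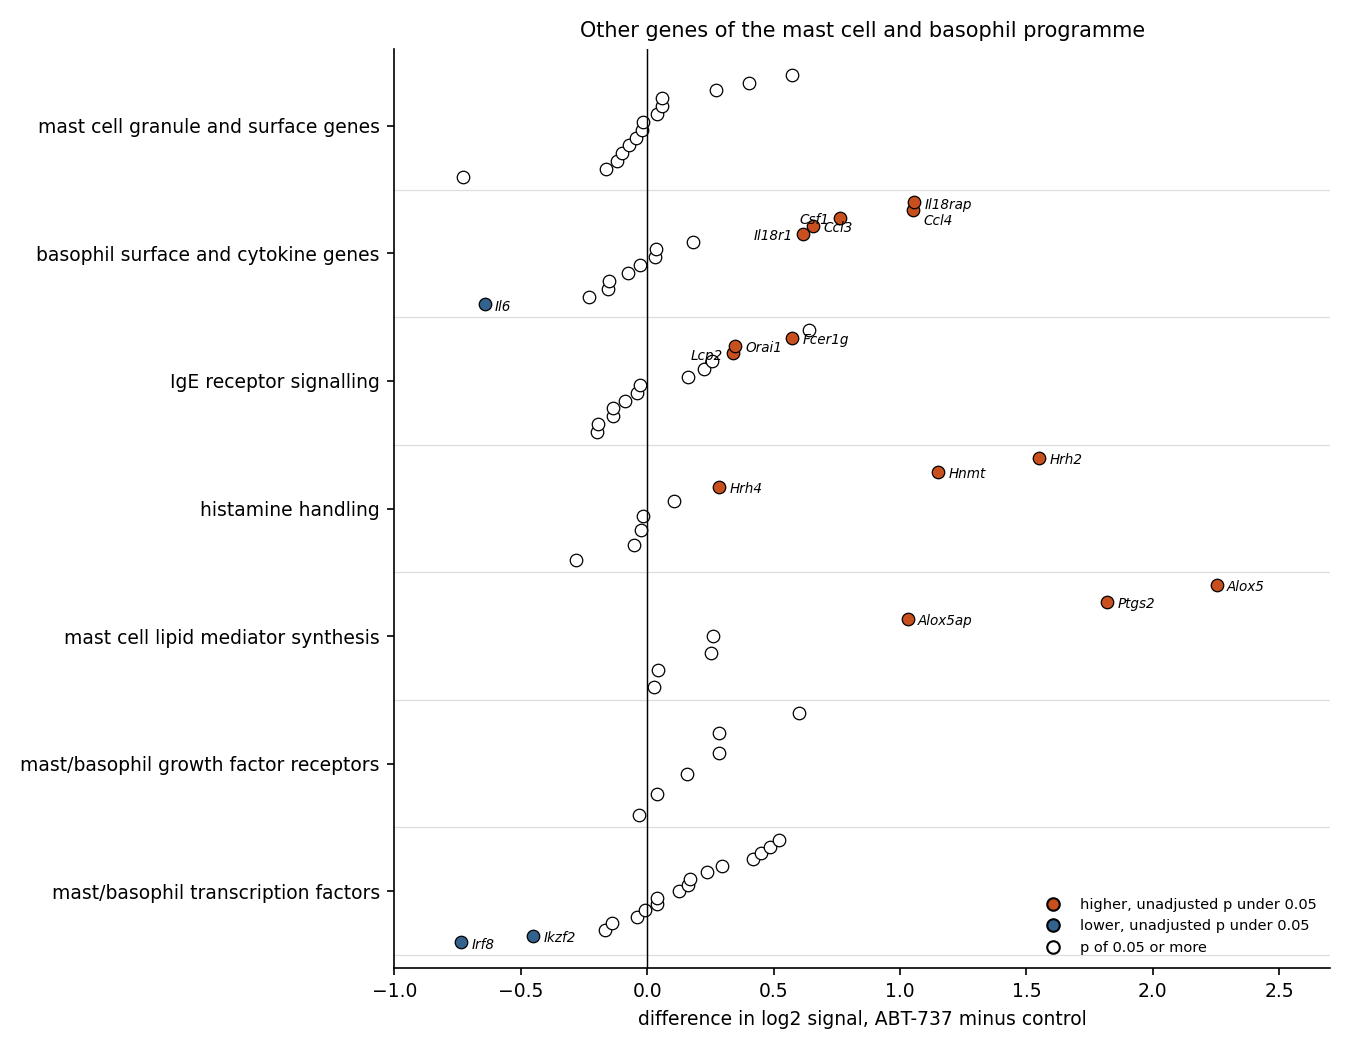
Difference in log2 signal, ABT-737 minus control (x axis), of the measured genes of 7 lists of mast cell and basophil biology; each point is a gene, filled where the unadjusted limma p was under 0.05. The largest positive differences are Alox5 (2.25), Ptgs2 (1.82) and Hrh2 (1.55), and the mast cell granule list has no filled point.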

How the data were processed

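Expression in Sca-1-selected spleen cells was read on Affymetrix exon arrays, per the labels. The authors deposited log2 values between 2.6 and 14.3 (the scale was judged from their range), and how the authors normalized and summarised them is not given in the sources used here. Per the submitters' processing notes the build was mm9. No scanner files or background signals were used, and precision is limited by how many arrays there are.

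Of 23332 entries the platform annotation gave 1 symbol to 14996, and the entry with the highest mean was kept for the 135 genes with several. This left 14860 genes. Listed genes outside them were not analysed here. The groups were compared, ABT-737 minus control, in limma 3.58.1 under R 4.3.3 (lmFit and eBayes, no filter). All p-values were adjusted together by Benjamini-Hochberg, the threshold was 0.05, and the procedure was tested on simulated data. SE values are limma's. Groups came from the treatment labels, the mice were separate animals numbered in accession order, and nothing pairs them.

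The 7 genes and the gene lists were chosen with earlier results of these data known. Named genes were the 7, the 5 most correlated with Hdc and with Mcpt8, the 4 smallest p-values in every pathway list, and genes set by name. Of marker lists, the 3 brightest could be named. Cd200r3, Csf1, Il6, Kdm5d and Eif2s3y were outside this rule. Alternatives were quantile normalization, centring on array medians, leaving out the dimmest 30% of genes, robust trended variance, weighting of arrays, averaging a gene's entries, and leaving out each mouse.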

Additional observations from a re-analysis of the deposited data

How the results depend on the processing

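Hdc stayed higher and Mcpt8, Prss34, Cpa3, Ms4a2 and Gata2 stayed lower under quantile normalization, centring and leaving out each mouse. Averaging a gene's entries could not change these 7 genes, as each had 1 entry. The range leaving out each mouse was 1.68 to 2.44 for Hdc, -1.20 to -0.69 for Mcpt8, -0.83 to -0.41 for Prss34, -0.78 to -0.04 for Cpa3, -0.22 to -0.13 for Ms4a2, -0.24 to -0.11 for Gata2, and -0.14 to 0.16 for Fcer1a, whose sign changed. Centring moved Ms4a2 to -0.25. Genes with an adjusted p under 0.05 numbered 0 in the limma fit, 14 without the dimmest 30% of genes, 2 with array weights, and 0 to 510 leaving out each mouse, with 510 without treated mouse 1 and 1 without treated mouse 3. Of the pathway genes 0 to 11 passed leaving out each mouse, and 0 under the other alternatives. At an unadjusted p under 0.05, 17 pathway genes were found, and 11 to 24 leaving out each mouse, with 11 without control mouse 1 or control mouse 2. The count over all genes moved too, from 1516 to between 1090 and 2191 leaving out each mouse. The share of higher genes among all genes at that p was 56.3%, but 34.4% after quantile normalization and 32.0% after centring, where the median difference of all genes was -0.06 and -0.11, against -0.02 as deposited. Small differences changed sign. Kit was -0.044 after quantile normalization, -0.047 after centring and -0.095 with array weights, Cma1 was -0.027 and Cd200r3 -0.053 after centring, and Tpsb2 was 0.015 with the mean of its entries. Leaving out each mouse, ranges were -0.135 to 0.18 for Kit, -0.14 to 0.017 for Tpsb2, -0.032 to 0.177 for Cma1, -0.062 to 0.033 for Slc18a2, -0.152 to 0.198 for Cebpa and -0.007 to 0.063 for Cd200r3. The cause of these changes was not tested. No paired analysis was possible because no label ties a treated mouse to a control mouse. With 3 mice a group and no background signal, small differences of dim entries such as Fcer1a and Ms4a2 cannot be resolved.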
